A study of Mus musculus with 24 samples.

Results

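Supplemented Ts65Dn was compared with control-diet 2N in 14 of 24 libraries labelled as captured basal forebrain cholinergic neurons. The comparison holds the trisomic offspring of choline-supplemented dams (8 libraries by title and by the genotype and treatment labels) against disomic offspring of dams on the control diet (6 libraries). Genotype and diet therefore differ together, and no difference below can be given to either alone. Ts65Dn is a mouse model of Down syndrome that carries an additional copy of part of chromosome 16 and of a part of chromosome 17. 2N are disomic mice of the same colony, bred from Ts65Dn females and males of a C57Bl/6J Eicher × C3H/HeSnJ F1 cross.

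All mice were males of about 6 months. Choline chloride in the feed of the dams was 1.1 g/kg for control litters and 5 g/kg for supplemented litters from conception to weaning, and all pups ate the control diet from weaning on. Neurons stained for choline acetyltransferase were cut by laser from the medial septum and vertical diagonal band, about 500 per mouse, and total RNA of each mouse gave 1 library. The other libraries are control-diet Ts65Dn (n = 6) and supplemented 2N (n = 4), which entered the same fit. No label gives the litter, so p-values treat pups of the same dam as independent.

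Basal forebrain cholinergic neurons send acetylcholine to hippocampus and cortex and depend on nerve growth factor, which they bind with receptors that include Ngfr. They degenerate in Down syndrome and in Alzheimer's disease. Choline is the precursor of acetylcholine and of membrane phospholipids, and through betaine it is a source of methyl groups. The question of the comparison is which gene groups of the supplemented trisomic neurons stand apart from the untreated disomic state, and which can be bounded close to it.

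Total counts ran from 5053130 to 11255859 in supplemented Ts65Dn and from 7626880 to 13307831 in control-diet 2N. The libraries labelled supplemented Ts65Dn 2 and 5 stood apart from the other 6 of their group. They held 17.8% and 21.1% of counts in the 2 mitochondrial ribosomal RNA genes, against 29.0 to 43.3% in the other 6 and 18.9 to 25.8% in control-diet 2N. In the deposited series table, whose columns otherwise run group by group, these 2 libraries stand at positions 2 and 4, among the supplemented 2N columns. The design text states 6 mice per group, whereas the labels give 8 and 4. Groups follow the labels here, and results are also given without replicates 2 and 5, a choice made after the data were seen. Calls and adjusted p-values without these 2 libraries are therefore given as description only. Chat, the gene of the stained enzyme, was under 1 CPM (the count relative to the TMM-scaled library size) in supplemented Ts65Dn 7 and in control-diet 2N 5, and supplemented Ts65Dn 7 also had the fewest genes detected of the 14 libraries (13141).

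The triplicated genes served as a check of the genotype labels. The 31 tested genes of the chromosome 17 segment summed to 1109 to 1602 CPM in the 6 control-diet 2N libraries and to 1645 to 1959 CPM in the 8 supplemented Ts65Dn libraries, so that the groups did not overlap. Supplemented Ts65Dn 2 and 5 stood at 1672 and 1720 CPM, inside the range of the other trisomic libraries and above the supplemented 2N range of 899 to 1273 CPM. The 75 tested genes of the chromosome 16 segment summed to 7120 to 11123 CPM in control-diet 2N and 9668 to 10690 CPM in supplemented Ts65Dn, which overlapped. Replicates 2 and 5 had 10479 and 10648 CPM there, above the 6850 to 8075 CPM of supplemented 2N. These chromosome 16 sums also lie inside the control-diet 2N range, so of the 2 sums only that of chromosome 17 sets replicates 2 and 5 apart from the disomic libraries. Relative to all tested genes of each library, their mean chromosome 16 level (log2 CPM centred per gene) was 0.18 and 0.24. Control-diet 2N ran from −0.29 to −0.04. On log2 TPM the values were 0.36 and 0.24, beside −0.24 to −0.01. Supplemented Ts65Dn 4, at −0.07 and −0.13, lay within the control-diet 2N range on both scales. A low mitochondrial ribosomal RNA share is not particular to disomic libraries either, since control-diet Ts65Dn ran from 13.5 to 29.3%.

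Across 19967 tested genes, 92 were called higher (0.461% of those tested) and 17 lower (0.0851%), 0.546% in all, by the quasi-likelihood test of edgeR at a Benjamini-Hochberg adjusted p under 0.05. At an unadjusted p under 0.05, 5.22% were higher and 3.95% lower. DESeq2 called 1.34% higher and 0.366% lower, and limma-voom 0.932% and 0.581%. Every supplemented Ts65Dn library lay above every control-diet 2N library for 0.0952% of genes and below for 0.21%, and without replicates 2 and 5 for 1.47% and 0.891%. Without supplemented Ts65Dn 2 and 5 it called 153 higher (0.783%) and 75 lower (0.384%), among them 107 of the 109 genes called with all 8 libraries. The lower count depended on single libraries: it was 34 without supplemented Ts65Dn 2, 30 without supplemented Ts65Dn 5, and 9 to 11 without supplemented Ts65Dn 1, 4 or 6 or control-diet 2N 1, 3, 4 or 6. The median log2 fold change of all tested genes was 0.00. Each gene also has a 95% interval of its log2 fold change, and 2185 genes (10.9%) had an interval wholly inside a 2-fold change in either direction. Such bounds exist only for abundant transcripts: 1566 of 2125 genes with a mean of at least 6 log2 CPM were bounded in this way (73.7%), and 0 of 14126 genes with a mean under 4. Genes neither called nor bounded are not resolved at this depth and spread.

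Of the 92 genes called higher, 49 carry identifiers outside GENCODE M21 and have no symbol here, 20 were small nucleolar RNAs, 8 other small noncoding RNAs and 6 protein-coding genes. Of the 17 called lower, 13 were protein-coding. Some called identifiers cannot be counted as separate genes, since 23 called genes in 8 sets have counts identical to another called gene, which leaves 94 distinct profiles.

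Small nucleolar RNAs (snoRNAs) guide chemical modification of ribosomal and spliceosomal RNA. Box C/D members direct methylation of the ribose and box H/ACA members direct pseudouridylation, and most mouse snoRNAs are cut from introns of host genes. The sequences below, from GENCODE M21 on GRCm38, show called members of both families, since these short RNAs make up the largest named class of higher genes. Capitals mark the box C core TGATGA and the box D motif CTGA, or the ACA that lies 3 bases from the end.
Snord47, chr1:161038082-161038158, plus strand: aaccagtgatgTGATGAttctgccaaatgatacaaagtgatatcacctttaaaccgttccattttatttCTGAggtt
Snord49a, chr11:62603450-62603521, plus strand: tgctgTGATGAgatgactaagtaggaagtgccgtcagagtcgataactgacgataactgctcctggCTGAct
Snord21, chr5:107904555-107904648, plus strand: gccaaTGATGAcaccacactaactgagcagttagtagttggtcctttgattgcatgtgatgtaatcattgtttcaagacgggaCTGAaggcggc
Snora21, chr11:97781639-97781775, minus strand: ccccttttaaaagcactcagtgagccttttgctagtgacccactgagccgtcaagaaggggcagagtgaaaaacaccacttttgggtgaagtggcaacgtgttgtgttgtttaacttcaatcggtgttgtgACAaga

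Both box motifs, searched on the transcribed strand only with TGATGA in the first 20 bases and CTGA in the last 20, lie in 10 of the 20 called snoRNAs, in 67 of 170 tested and in 309 of 1507 annotated snoRNA transcripts (20.5%). The same search finds them in 0.0340% of the first 80 bases of protein-coding transcripts. The ACA at its place lies in 4 of the 20 called snoRNAs and in 57 of 170 tested.

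Small nucleolar RNAs were the largest named class of higher genes. The count table holds 1065 of them and 170 passed the filter on low counts. Of these, 76 had fewer than 10 counts in every control-diet 2N library and passed through libraries in which they were high. The counts, medians and p-values below therefore describe the members that passed and support nothing about the class. Of the 170 tested, 20 were called higher and 0 lower, 167 had a positive log2 fold change, and their median was 4.50. With the 23 members that were at 0 in all 6 control-diet 2N libraries set at the bound that 3 counts over the group allow, the median was 4.32. At an unadjusted p under 0.05, 110 members were higher and 0 lower, and DESeq2 and limma-voom called 63 and 65 higher and 0 and 1 lower. By family, 8 of 49 with a Snord symbol and 5 of 29 with a Snora symbol were called. Without supplemented Ts65Dn 2 and 5 the class had 41 members called higher, 1 lower (Snord80, named after its values were seen) and a median of 4.86.

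The summed level of the 49 Snord genes was 29.2 to 549 CPM in control-diet 2N. Supplemented Ts65Dn 1, 3, 4, 6, 7 and 8 had 5888, 3308, 2845, 5122, 5508 and 3749 CPM. Supplemented Ts65Dn 2 and 5 had 90.2 and 241 CPM. The 6 high libraries were thus all above the disomic range and replicates 2 and 5 within it. Control-diet Ts65Dn ran from 163 to 905 CPM in 5 libraries, with 6124 CPM in replicate 3.

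Snord55 was 0 to 0.538 CPM in control-diet 2N and 19.8 to 106 CPM in the 6 high supplemented libraries, with 0.335 and 0.342 CPM in replicates 2 and 5. Its log2 fold change was 7.12 ± 1.33 (SE), adjusted p = 0.00179. Snord55 passed the filter only through libraries in which it was high, so these values are given as description only. Snora23, a box H/ACA member, was 0 to 10.2 CPM in control-diet 2N and above that in every supplemented library, from 20.0 CPM in replicate 2 to 332 CPM in replicate 1 (5.23 ± 0.94, adjusted p = 0.00114). Snord17 rose by 3.11 ± 0.54 (adjusted p = 0.000773) and Snora21 by 5.60 ± 1.16 (adjusted p = 0.00684).

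Several called snoRNAs share every 31-base stretch with another gene. Snord15b and Snord21 lie wholly inside annotated transcripts of Rps3 and Rpl5, which code for ribosomal proteins, so their reads can be assigned to either gene. Snord15b was 1874 to 4053 CPM in the 6 high supplemented libraries, where Rps3 had 29.3 to 60.8 CPM. In replicates 2 and 5 Snord15b was at 0 while Rps3 had 385 and 1856 CPM. Summed over both genes, control-diet 2N had 130 to 880 CPM, the 6 libraries 1903 to 4114 CPM, and replicates 2 and 5 had 385 and 1856 CPM. The sum kept the 6 libraries apart from the disomic range and placed replicate 5 above it as well, which the snoRNA alone did not. Snord21 with Rpl5 summed to 21.4 to 188 CPM in control-diet 2N and 187 to 744 CPM in the 6 libraries, with 68.7 and 188 CPM in replicates 2 and 5, so the groups overlapped.

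Of the other called members with a Snord or Snora symbol, Snord22, Snord47, Snora7a and Snora81 also share all stretches with a host gene, and Snora74a with an unnamed gene model. The gene models Gm22357 and Gm23650 share all of theirs with Gas5 and Nop56. Snord22, alone 0 to 7.10 CPM in control-diet 2N and 116 to 272 CPM in the 6 libraries, lies inside Snhg1, and their sum kept these apart (8.66 to 83.1 CPM against 130 to 304 CPM, with 22.9 and 58.6 CPM in replicates 2 and 5). Snord47 lies inside Gas5, a noncoding host of several snoRNAs. Alone it was 0 to 0.860 CPM against 16.4 to 57.5 CPM, but the sum with Gas5 was 43.4 to 256.6 CPM against 41.3 to 178 CPM and overlapped. Snora7a with Rpl32, a ribosomal protein gene, had 19.9 to 89.0 CPM against 36.3 to 107 CPM. Snora81 with Eif4a2, a translation initiation factor gene, had 77.2 to 225 CPM against 112 to 193 CPM. The calls on Snord47, Snora7a and Snora81 thus did not separate the groups once the host was added. Snord55, Snord49a, Snord15a, Snord17 and Snora23 share no stretch with another gene.

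Other short noncoding RNAs were higher in the same libraries. Bc1 is a neuronal RNA carried into dendrites, where it represses translation. It was 22.8, 8.31, 15.0, 38.5, 11.8 and 37.8 CPM in control-diet 2N 1 to 6. Supplemented Ts65Dn 1, 3, 4, 6, 7 and 8 had between 2834 and 11689 CPM, whereas replicates 2 and 5 had 15.2 and 51.0 CPM. All but replicate 2 were above the disomic range, and the log2 fold change was 7.50 ± 1.26 (adjusted p = 0.000568). The sequence, from GENCODE M21 on GRCm38, shows the transfer RNA-like 5′ part followed by the stretch rich in A that marks this RNA; no base is set in capitals. Of its 31-base stretches, 42.0% also lie in other annotated transcripts.
Bc1, chr7:144914470-144914637, plus strand: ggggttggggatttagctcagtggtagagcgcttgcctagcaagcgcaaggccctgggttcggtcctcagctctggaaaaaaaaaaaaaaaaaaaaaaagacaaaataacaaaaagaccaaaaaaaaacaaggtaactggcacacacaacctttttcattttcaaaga

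Rpph1, the RNA subunit of RNase P, which trims transfer RNA precursors, was 30.9 to 150 CPM in control-diet 2N and 138 to 1989 CPM in supplemented Ts65Dn (3.84 ± 0.81, adjusted p = 0.00782). However, 70.2% of its 31-base stretches also lie in transcripts of Ccnb1ip1, so its reads can be assigned to either gene. The sum of Rpph1 and Ccnb1ip1 was not computed. Rprl2, a gene model related to Rpph1, had 0.103 to 2.94 CPM in control-diet 2N and 565 to 1605 CPM in 5 supplemented libraries, but 0 in replicates 2 and 8 and 0.0856 CPM in replicate 5. Rmrp, the RNA of RNase MRP, is annotated as overlapping models, of which 1 was called lower (adjusted p = 0.00199, at 0 in all 8 supplemented libraries and above 0 in 4 of 6 control-diet 2N libraries, at least 524-fold lower) and the other higher (4.31 ± 1.03, adjusted p = 0.0307). Summed over both, Rmrp had 13.8 to 83.7 CPM in control-diet 2N and 36.8 to 417 CPM in supplemented Ts65Dn. The sum was thus not lower in the supplemented group. Rny3, a Y RNA bound by the Ro protein, rose by 2.89 ± 0.73 (adjusted p = 0.0488).

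**Figure D1:**
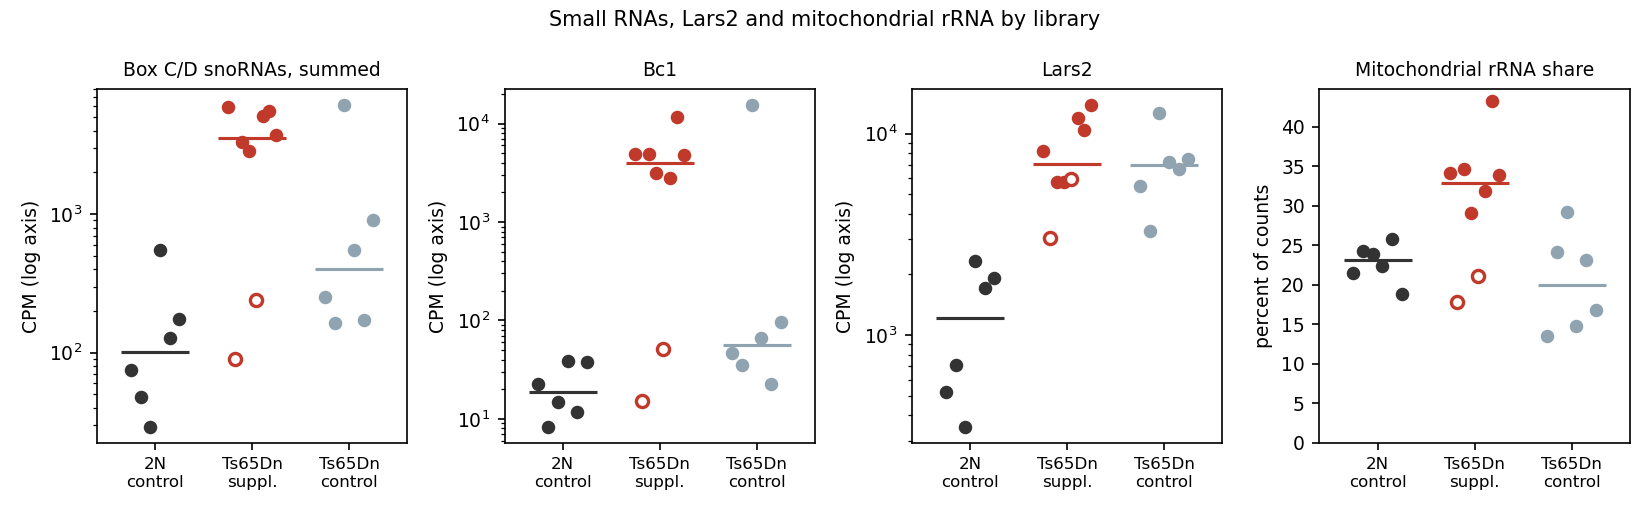
Each point is 1 library, the short line is the group median, and open points are supplemented Ts65Dn 2 and 5; the y axes give CPM on a log axis for summed box C/D snoRNAs, Bc1 and Lars2, and percent of counts for mitochondrial ribosomal RNA. The open points lie within the control-diet 2N range for snoRNAs and above it for Lars2; for Bc1 replicate 2 is within it and replicate 5, at 51.0 CPM, just above, and for mitochondrial ribosomal RNA replicate 5 is within it and replicate 2, at 17.8%, just below.

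Lars2 and Snhg14 were longer transcripts among those called higher. Lars2 codes for the mitochondrial leucyl-tRNA synthetase. It was 352 to 2328 CPM in control-diet 2N, with a median of 1213, and 3023 to 13846 CPM in supplemented Ts65Dn, with a median of 7052. The groups did not overlap, replicates 2 and 5 included (3023 and 5935 CPM), and the log2 fold change was 2.69 ± 0.32 (adjusted p = 2.14e-06). Control-diet Ts65Dn had 3273 to 12714 CPM. Of the 31-base stretches of Lars2, 0.923% also lie in other annotated transcripts. Sequences outside that annotation were not searched, so reads from such sequences could not be told apart from Lars2 messenger RNA. Lars2 was called in each of the 14 fits that left out 1 library. Snhg14, the long host transcript of the Snord115 and Snord116 clusters that overlaps Ube3a in antisense, was 888 to 1574 CPM in control-diet 2N and 1333 to 2668 CPM in supplemented Ts65Dn (0.96 ± 0.16, adjusted p = 0.000688). Only replicate 2 lay within the disomic range.

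Mir6236 was called higher in a different set of libraries. The annotated locus had 163 to 604 CPM in control-diet 2N and 253 to 1799 CPM in supplemented Ts65Dn, with replicate 5 at the top (1799 CPM) and replicate 7 at the bottom (1.45 ± 0.31, adjusted p = 0.00871). Its control-diet Ts65Dn range was 702 to 2790 CPM. The mature sequence in RefSeq (GRCm38, chr9:110281353-110281371, plus strand), with the seed in capitals, is given to show what the name refers to; total RNA libraries do not measure the processed miRNA.
mmu-miR-6236: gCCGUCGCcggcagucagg

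The share of mitochondrial ribosomal RNA was 30.7 ± 8.08% (SD, n = 8) in supplemented Ts65Dn beside 22.8 ± 2.44% (SD, n = 6) in the disomic group, a difference of 7.95 percentage points (two-sided exact permutation test, p = 0.0346). Without replicates 2 and 5 the supplemented mean was 34.5 ± 4.78% (SD, n = 6), given with no test because the 2 libraries were set apart partly by this share. It moved with the small RNAs across the supplemented libraries. With the share as a covariate, edgeR called 17 genes higher and 11 lower, and Bc1 and the snoRNAs Snord15a, Snord17, Snord22, Snord55 and Snora21 were no longer called. Its part in these results was not tested beyond that fit.

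The 11 tested mitochondrial messenger RNAs code for subunits of the respiratory chain. Of these 11, edgeR called 1 higher, DESeq2 2 higher, and limma-voom 0 higher and 1 lower. With edgeR 6 were bounded inside 2-fold and the median log2 fold change was 0.10. The bounded members included mt-Nd5 (0.01, interval −0.44 to 0.46), mt-Cytb (0.10, −0.34 to 0.54) and mt-Co1 (−0.52, −1.0 to −0.04). mt-Nd6 was neither called by edgeR nor bounded (0.83, interval 0.36 to 1.31, adjusted p = 0.125). Without replicates 2 and 5 edgeR called mt-Nd6 higher (1.04, adjusted p = 0.00655). The member that edgeR called with all libraries, mt-Atp6, was at 0 in all 6 control-diet 2N libraries and above 0 in 5 of 8 supplemented libraries (at least 12159-fold higher, and 3320-fold without supplemented Ts65Dn 7). However, 99.5% of its 31-base stretches also lie in the gene model Gm10925, and the sum of both was 1813 to 6558 CPM in control-diet 2N and 1610 to 5409 CPM in supplemented Ts65Dn. The sums overlapped, so the call on mt-Atp6 does not separate the groups once the near-identical copy is added. mt-Tq, the mitochondrial glutamine transfer RNA, was 255 to 869 CPM in control-diet 2N and 22.3 to 275 CPM in supplemented Ts65Dn (−2.36 ± 0.49, adjusted p = 0.00686).

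Chgb, Kif3a and Ubxn4 were among the 13 protein-coding genes called lower. Chgb, a granin stored in secretory granules, was 508, 369, 430, 614, 481 and 317 CPM in control-diet 2N 1 to 6. Supplemented Ts65Dn 1 to 8 had 199, 246, 190, 261, 317, 200, 232 and 154 CPM. Only replicate 5 reached the lowest disomic library, and the log2 fold change was −1.01 ± 0.20 (adjusted p = 0.00376). In control-diet Ts65Dn, Chgb had 337 to 678 CPM. Supplemented against control-diet Ts65Dn gave −1.0 (adjusted p = 0.0154), a contrast that shares the supplemented libraries and in which 0.0501% of genes were called higher and 0.0801% lower.

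Kif3a, a motor subunit of kinesin-2, was 244 to 268 CPM in control-diet 2N. Its supplemented Ts65Dn values were 142, 122, 158, 156, 179, 134, 95.3 and 113 CPM, all below every disomic library (−0.90 ± 0.20, adjusted p = 0.0165). Both Chgb and Kif3a were called in all 14 fits that left out 1 library. Without the libraries with Chat under 1 CPM, Kif3a was no longer called (adjusted p = 0.0589), while Chgb was.

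Ubxn4, a factor of protein degradation at the endoplasmic reticulum, was 92.8 to 152 CPM in control-diet 2N and 38.6 to 59.0 CPM in supplemented Ts65Dn, with no overlap (−1.28 ± 0.29, adjusted p = 0.0177). The polyubiquitin gene Ubb was 630 to 824 CPM against 223 to 542 CPM (−0.93 ± 0.21, adjusted p = 0.0138). Of its 31-base stretches, 49.3% are shared with the gene model Gm1821, and the sum of both overlapped, with 663 to 874 CPM against 340 to 865 CPM. Tpt1, which codes for the translationally controlled tumor protein, was 70.9 to 191 CPM against 21.1 to 80.1 CPM (−1.52 ± 0.33, adjusted p = 0.010). It shares 19.9% of its stretches with the pseudogene Tpt1-ps3, and the sum of both overlapped, with 110 to 229 CPM against 43.1 to 145 CPM. The cytosolic chaperone Hsp90aa1 was 760 to 1295 CPM against 269 to 878 CPM (−0.88 ± 0.20, adjusted p = 0.0202). Summed with its copy Gm12346, Hsp90aa1 had 1009 to 1456 CPM against 387 to 1133 CPM.

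Syt1, the calcium sensor of transmitter release, was 774 to 1287 CPM in control-diet 2N. It was 478 to 690 CPM in 7 supplemented libraries and 983 CPM in replicate 2 (−0.75 ± 0.18, adjusted p = 0.0307). Cox8a, a subunit of cytochrome c oxidase, was 75.7 to 142 CPM against 19.2 to 71.9 CPM, with no overlap (−1.38 ± 0.35, adjusted p = 0.0470). These calls were less stable: Syt1 was called in 3 and Cox8a in 4 of the 14 fits that left out 1 library. Sv2b, a synaptic vesicle glycoprotein (−2.96 ± 0.73, adjusted p = 0.0392), was called in 6 and had an adjusted p of 0.0788 without replicates 2 and 5. Ywhaz, a 14-3-3 adaptor protein (−1.11 ± 0.26, adjusted p = 0.0263), was called in 7.

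**Figure D2:**
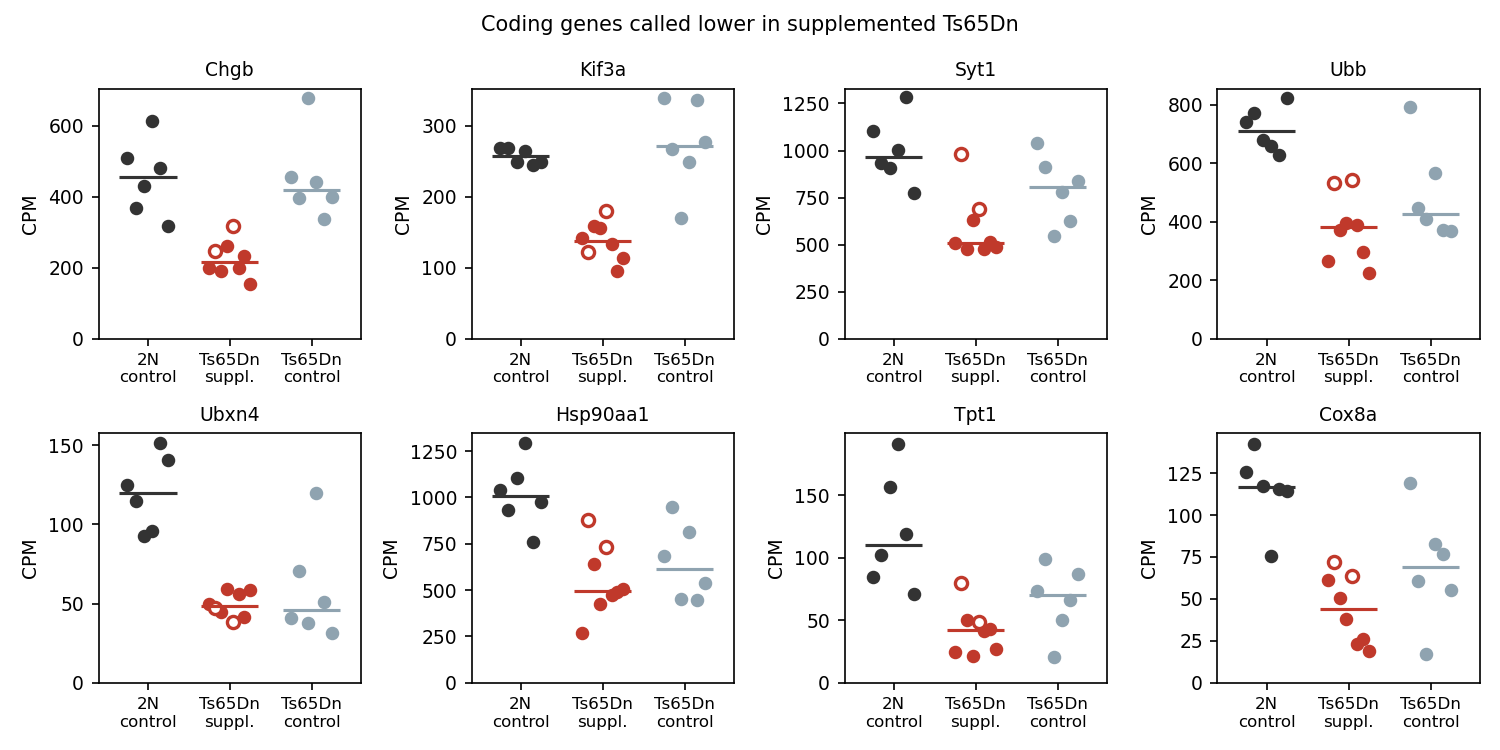
Each panel gives 1 gene in CPM on an axis from 0; points are libraries, short lines are group medians, and open points are supplemented Ts65Dn 2 and 5. Kif3a, Ubb, Ubxn4 and Cox8a show no overlap between control-diet 2N and supplemented Ts65Dn, and control-diet Ts65Dn lies at 170 to 339 CPM for Kif3a.

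Gm37376, a gene model within Malat1, was called lower (−2.13 ± 0.45, adjusted p = 0.00813), but all of its 31-base stretches are shared with Malat1. Both summed to 10493 to 19838 CPM in control-diet 2N and 8750 to 19534 CPM in supplemented Ts65Dn. Npcd was called higher (adjusted p = 0.00902), at 0 in all 6 control-diet 2N libraries and above 0 in 6 of 8 supplemented libraries, at least 526.1-fold higher. It shares 96.3% of its stretches with other genes, most with Nptxr. Npcd and Nptxr together had 94.6 to 327 CPM in control-diet 2N and 75.9 to 159 CPM in supplemented Ts65Dn, so the higher call on Npcd did not hold for the pair. Klhl36 and Ssbp4 share no stretch with another gene. Ssbp4, a single-stranded DNA-binding protein, rose by 1.53 ± 0.37 (adjusted p = 0.0307), from 17.4 to 43.1 CPM in control-diet 2N to 28.3 to 120 CPM.

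The triplicated genes were described against a 1.5-fold dose. On chromosome 16, edgeR called 0 of 75 tested genes and DESeq2 and limma-voom 1 each, 2 were higher at an unadjusted p under 0.05, 53 were positive and the median log2 fold change was 0.31, against 0.00 for all tested genes. On chromosome 17, edgeR called 0 of 31, DESeq2 1 and limma-voom 0, 4 were higher at an unadjusted p under 0.05, 22 were positive and the median was 0.36. Control-diet Ts65Dn against the same 2N libraries had medians of 0.37 and 0.51. Single genes were rarely resolved: the intervals of 69 of the 75 chromosome 16 genes held both 0 and the log2 of 1.5.

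Son, a splicing cofactor, was the member with the smallest p (0.57 ± 0.17, interval 0.23 to 0.91, adjusted p = 0.148). It was 476 to 658 CPM in control-diet 2N and 630 to 1020.3 CPM in supplemented Ts65Dn, and only replicate 4 lay within the disomic range. App, the amyloid precursor protein gene, was 2508 to 4717 CPM against 3021 to 4140 CPM (−0.06 ± 0.14, interval −0.35 to 0.23), which excludes a 1.5-fold higher level. The kinase gene Dyrk1a had 0.40 ± 0.27 and the superoxide dismutase gene Sod1 0.41 ± 0.41. Ttc3, a ubiquitin ligase, was bounded at 0.25 (−0.04 to 0.53). On a scale of TPM, which divides by transcript length, the mean level of the chromosome 16 genes was 0.27 log2 units lower in supplemented Ts65Dn, in place of 0.19 higher on log2 CPM. Relative to all tested genes of each library it was higher on both scales, by 0.35 (CPM) and 0.17 (TPM).

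**Figure D3:**
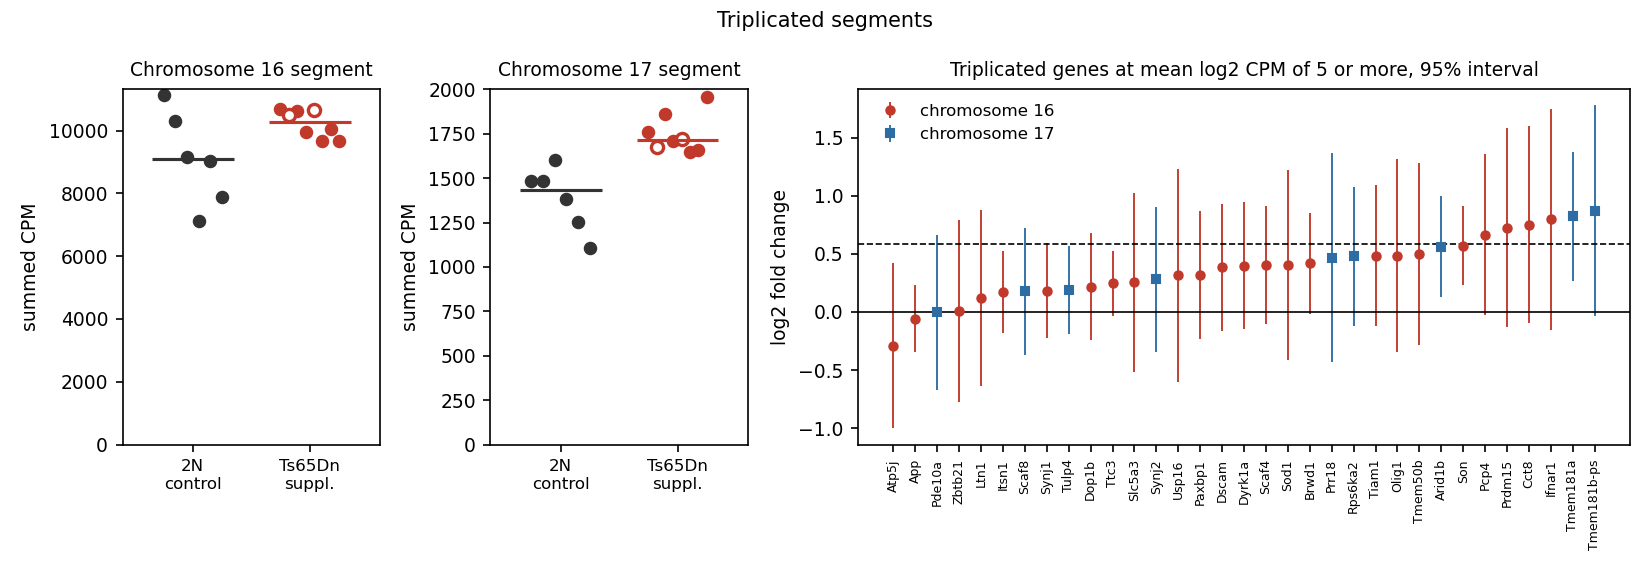
The left panels give the summed CPM of the triplicated genes per library, from 0, with open points for supplemented Ts65Dn 2 and 5 and short lines for medians. The right panel gives log2 fold changes with 95% intervals for members at a mean of 5 log2 CPM or more, with a solid line at 0 and a dashed line at 1.5-fold; most intervals reach both lines, and App lies below the dashed line.

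The cholinergic identity genes could mostly not be resolved. Of 25 tested, 0 were called by edgeR, DESeq2 or limma-voom, 2 were higher and 0 lower at an unadjusted p under 0.05, 3 were bounded inside 2-fold and the median log2 fold change was 0.29, whereas control-diet Ts65Dn had a median of −0.70 against the same 2N libraries. Chat was 0.803 to 21.7 CPM in control-diet 2N and 0.565 to 53.6 CPM in supplemented Ts65Dn, where replicates 2 and 5 had the highest values (53.6 and 40.7 CPM). Its log2 fold change was 0.25 ± 0.94 with them and −1.35 without them (adjusted p = 0.736), so the direction rests on these 2 libraries. Slc18a3, the vesicular acetylcholine transporter, had 1.40 ± 1.20, and Slc5a7, the choline transporter of the terminal, −0.27 ± 0.86. Ecel1, an endopeptidase, and the transcription factor gene Zic4 had the smallest p (0.72 ± 0.31 and 1.98 ± 0.96, adjusted p = 0.399 and 0.520). In captured populations, fewer cells of a type and less RNA per cell cannot be told apart.

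Of 20 tested neurotrophin pathway genes, 0 were called by edgeR, DESeq2 or limma-voom, 2 were higher and 0 lower at an unadjusted p under 0.05, and 10 were bounded, with a median of −0.19. The receptor Ngfr was 24.9 to 75.7 CPM in control-diet 2N and 25.7 to 84.0 CPM in 7 supplemented libraries, with 1.70 CPM in replicate 7 (0.12 ± 0.50, interval −0.89 to 1.12). It could not be bounded inside 2-fold.

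Among structural and presynaptic genes, intervals lay inside 2-fold for 34 of 50 synaptic vesicle genes, 27 of 39 cytoskeletal genes, 27 of 48 axonal transport genes, 27 of 48 voltage-gated channel genes and 12 of 14 general neuronal markers. Medians of these lists were −0.02, −0.15, −0.02, −0.03 and −0.14. These shares differ with abundance: among members at a mean of 6 log2 CPM or more, 32 of 40, 23 of 30, 26 of 33, 25 of 29 and 12 of 12 were bounded, beside the 73.7% of all genes at that level, so nothing particular to these lists is read from them. An interval inside 2-fold does not mean that a gene did not differ. Of the cytoskeletal genes edgeR called 0, DESeq2 2 lower and limma-voom 4 lower, and 0 were higher and 10 lower at an unadjusted p under 0.05. Of the axonal transport genes edgeR called 1 lower, DESeq2 1 lower and limma-voom 2 lower. Of the synaptic vesicle genes edgeR called 2 lower, DESeq2 1 higher and 2 lower, and limma-voom 1 in each direction. Of the voltage-gated channel genes all 3 tools called 0 (1 higher and 2 lower at an unadjusted p under 0.05), and of the general neuronal markers edgeR and DESeq2 called 0 and limma-voom 1 lower, with 1 in each direction at an unadjusted p under 0.05. The 10 named genes with the narrowest intervals were Dst, Macf1, Ank2, Dync1h1, Kif1a, Sptan1, Map1b, Map1a, Sptbn1 and Ttc3. Most of these code for spectrins, cytoskeletal linkers and motors. Dync1h1, the heavy chain of dynein, was 1915 to 2783 CPM in control-diet 2N and 2141 to 3190 CPM in supplemented Ts65Dn (0.11, interval −0.16 to 0.37). Kif1a, a motor for synaptic vesicle precursors, had 0.08 (−0.20 to 0.35), and Sptan1, alpha-spectrin, −0.05 (−0.32 to 0.23). The microtubule-associated Map1a and Map1b had intervals inside 2-fold that exclude 0, at −0.36 (−0.64 to −0.09, adjusted p = 0.284) and −0.36 (−0.63 to −0.08, adjusted p = 0.303).

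**Figure D4:**
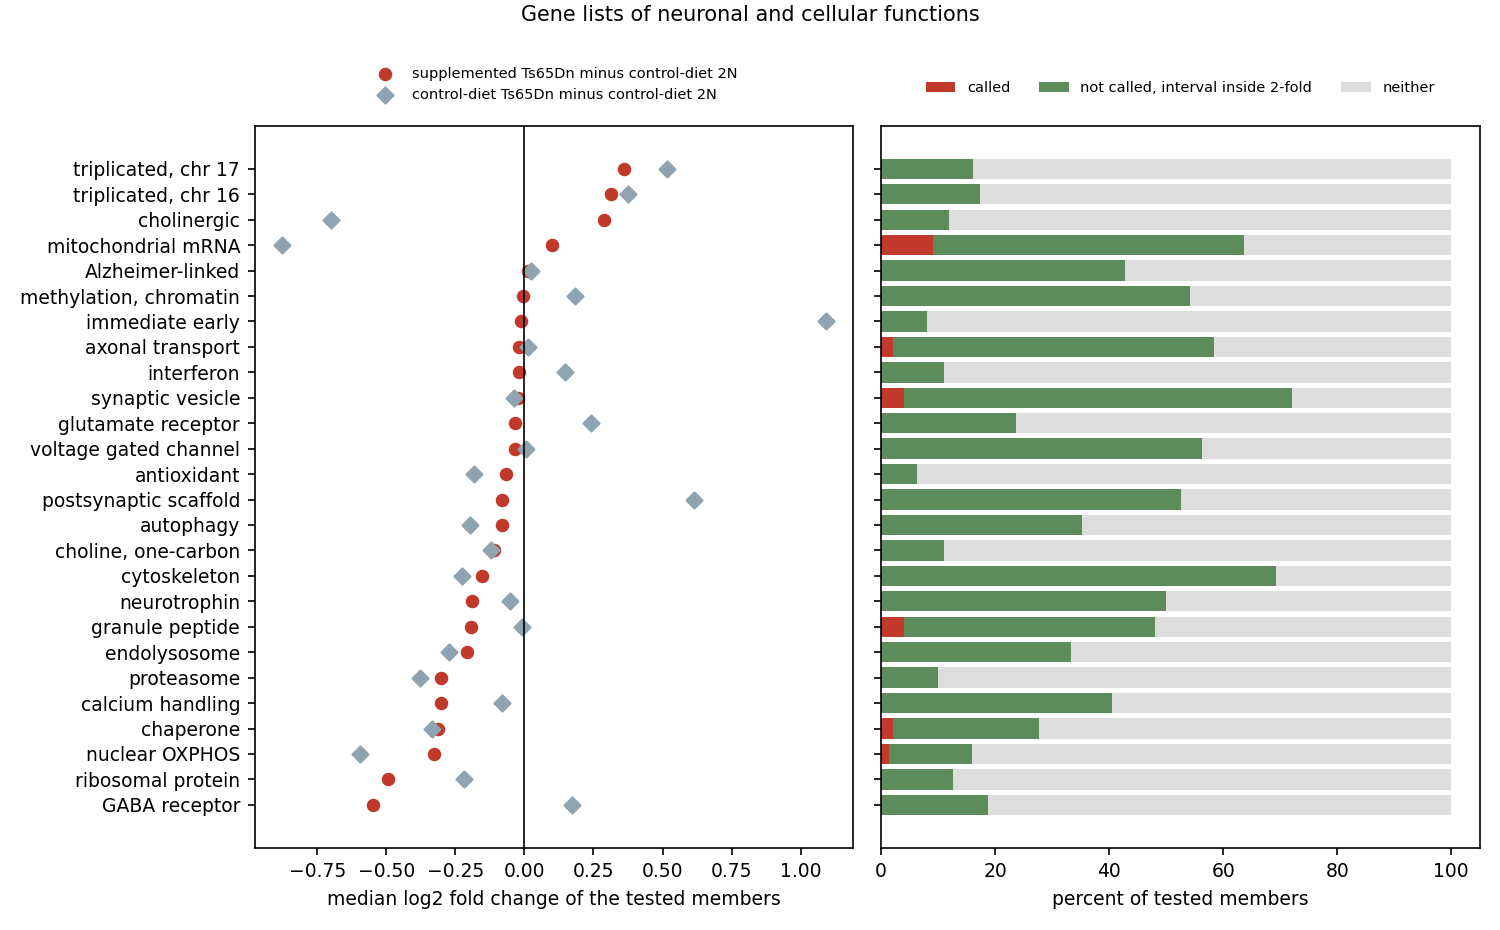
The left panel gives the median log2 fold change of the tested members of each list for supplemented Ts65Dn (circles) and control-diet Ts65Dn (diamonds), both against the same control-diet 2N libraries. The right panel gives the percent of members called, bounded inside 2-fold or neither; immediate early and postsynaptic scaffold genes have medians of −0.01 and −0.08 for supplemented Ts65Dn beside 1.09 and 0.61 for control-diet Ts65Dn.

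Postsynaptic and activity-related lists had medians near 0 here. Both comparisons use the same 2N libraries, so their values are set side by side only. Of 38 postsynaptic scaffold genes, 0 were called by edgeR, DESeq2 or limma-voom (2 higher and 4 lower at an unadjusted p under 0.05) and 20 were bounded, with a median of −0.08, beside 5 called higher (0.29% of all tested genes were called higher and 0.0451% lower there) and a median of 0.61 in control-diet Ts65Dn. The 38 genes summed to 5703 to 7226 CPM in control-diet 2N and 4925 to 9198 CPM in supplemented Ts65Dn. Control-diet Ts65Dn ran from 5868 to 18676 CPM. Agap2, a GTPase-activating protein, had 0.46 ± 0.25 beside 1.32 ± 0.27. Nptxr, the receptor of neuronal pentraxins, had −1.07 ± 0.36 (adjusted p = 0.224) beside 1.81 ± 0.40, and the test of supplemented against control-diet Ts65Dn gave −2.88 (adjusted p = 2.71e-05). Nptxr differed widely within control-diet Ts65Dn, from 81.9 to 1804 CPM. The glutamatergic marker Slc17a7 ran from 0 to 798 CPM there and from 0 to 92.5 CPM in control-diet 2N. Its part in these values was not tested.

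The 25 tested immediate early genes, transcription factors and effectors induced by neuronal activity, had a median of −0.01, beside 1.09 in control-diet Ts65Dn. They summed to 270 to 540 CPM in control-diet 2N, 230 to 608 CPM in supplemented Ts65Dn and 341 to 1570 CPM in control-diet Ts65Dn. Here edgeR, DESeq2 and limma-voom called 0, 0 were higher and 1 lower at an unadjusted p under 0.05, and 2 were bounded. Arc had 0.18 beside 1.79, Npas4 0.17 beside 2.17 and Egr1 0.20 beside 1.11; these members were chosen after their values were seen. Glutamate receptor genes had a median of −0.03 beside 0.24; of 38, edgeR and limma-voom called 0 and DESeq2 1 higher, and 4 were higher and 1 lower at an unadjusted p under 0.05. Gria1, an AMPA receptor subunit, had 0.65 ± 0.20 (adjusted p = 0.183) beside 0.95 ± 0.22, with an adjusted p of 0.0375 there. GABA receptor genes had a median of −0.55 beside 0.17; of 16, edgeR and DESeq2 called 0 and limma-voom 1 lower, and 0 were higher and 3 lower at an unadjusted p under 0.05.

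Genes called with the smallest p in control-diet Ts65Dn were read in the supplemented animals, again beside the same 2N libraries. Lars2 had 2.69 beside 2.51, Bc1 7.50 beside 6.87 and Mir6236 1.45 beside 2.34, each with an adjusted p under the threshold in either comparison. Cacna1e, a calcium channel subunit, had 0.26 ± 0.30 beside 1.63 ± 0.33 and was bounded inside 2-fold here, and the test of supplemented against control-diet Ts65Dn gave −1.37 (adjusted p = 0.0428). Atp2b4, a plasma membrane calcium pump, had 0.72 ± 0.25 beside 1.43 ± 0.27, and the phospholipase C gene Plch2 0.87 ± 0.43 beside 2.46 ± 0.48. Neither passed that test (adjusted p = 0.243 and 0.137).

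Of the genes called lower there, Cbll1, a subunit of the RNA methylation complex, had −0.51 ± 1.07 beside −7.17 ± 1.53 (supplemented against control-diet Ts65Dn 6.66, adjusted p = 0.0464). Qk, an RNA-binding protein, had −0.54 ± 0.21, and Sparc, a matrix protein, −0.30 ± 0.25. Both were bounded inside 2-fold, beside −1.14 and −1.18. Sparcl1, an astrocyte-enriched matrix protein, had −0.68 ± 0.18 (adjusted p = 0.0657) beside −0.80 ± 0.19, and Tmem184c −1.55 ± 0.40 (adjusted p = 0.0588) beside −1.99 ± 0.44. Without replicates 2 and 5 both were called lower (adjusted p = 0.0195 and 0.0120). Nefm, the medium neurofilament chain, had −0.75 ± 0.28 beside −1.29 ± 0.30.

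**Figure D5:**
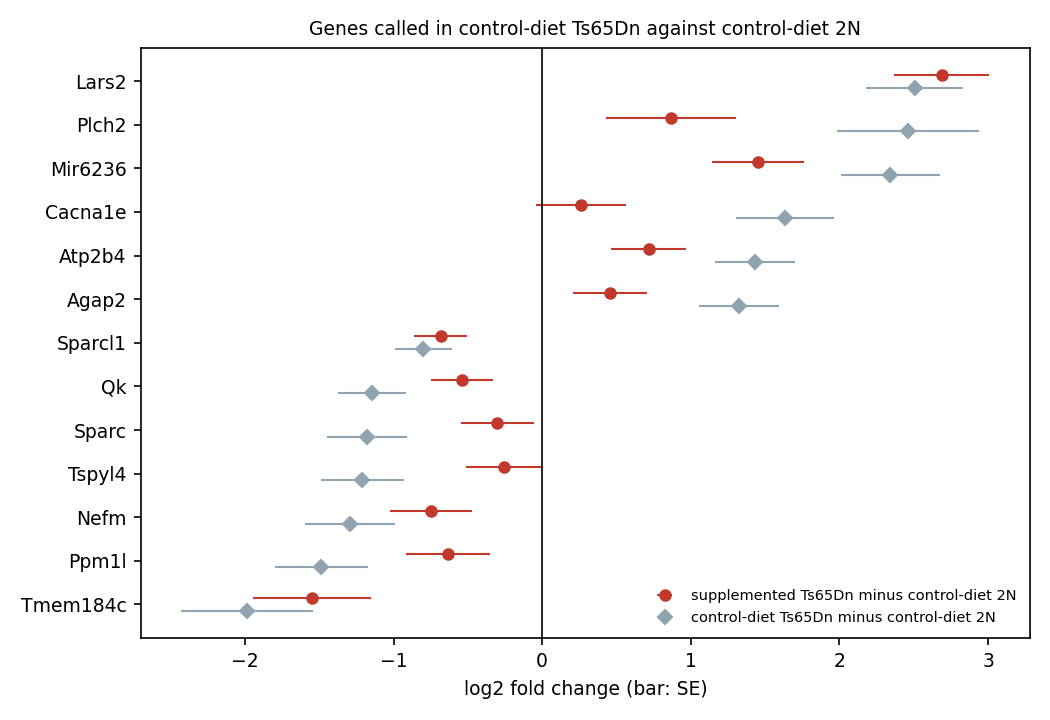
Points are log2 fold changes with SE bars for genes named because they were called in control-diet Ts65Dn against control-diet 2N (diamonds), beside supplemented Ts65Dn against the same 2N libraries (circles); Bc1 and Cbll1 lie beyond the axis and are not drawn, and 1 further gene is left out. Lars2 is at 2.69 and 2.51, while Cacna1e is at 0.26 and 1.63.

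Genes for translation, respiration and protein folding had negative medians, with few calls. Of 79 ribosomal protein genes, edgeR called 0, DESeq2 1 higher and 1 lower and limma-voom 10 lower. At an unadjusted p under 0.05, 1 was higher and 19 lower; 57 were negative and the median was −0.49. Their summed level was 3634 to 4295 CPM in control-diet 2N, 1950 to 3238 CPM in 7 supplemented libraries and 5349 CPM in replicate 5. Without replicates 2 and 5 the median was −0.75 and 9 were called lower, among them Rpl13 (−2.06, adjusted p = 0.014; −1.72 ± 0.44, adjusted p = 0.0602 with all libraries). Several of these genes are hosts of snoRNAs whose reads they share, as shown above for Rps3 and Rpl5, so counts of host and guest cannot be told apart.

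Of 75 nuclear respiratory chain genes, edgeR called 1 lower (Cox8a), DESeq2 1 lower and limma-voom 3 lower. With edgeR 11 were bounded and the median was −0.33, beside −0.59 in control-diet Ts65Dn. Without replicates 2 and 5, Atp5b, a catalytic subunit of ATP synthase, was also called (−1.10 ± 0.28, adjusted p = 0.0299). Of 47 chaperone genes, edgeR called 1 lower (Hsp90aa1), DESeq2 2 lower and limma-voom 3 lower. With edgeR 33 of the 47 were negative, with a median of −0.31 beside −0.33. Hspa8, Canx and Dnaja1 were called lower by edgeR as well without replicates 2 and 5 (adjusted p = 0.0132, 0.0117 and 0.0344). Proteasome genes had a median of −0.30, calcium handling genes −0.30, endolysosomal genes −0.21 and autophagy genes −0.08, and edgeR called 0 among 40, 47, 60 and 34. DESeq2 called 1 endolysosomal gene lower, and limma-voom 1 calcium handling and 1 endolysosomal gene lower. At an unadjusted p under 0.05, 2 proteasome genes were higher and 2 lower, 2 calcium handling genes higher and 9 lower, 0 endolysosomal genes higher and 6 lower, and 0 autophagy genes in either direction. Stmn1, a microtubule-destabilising protein, had −1.47 ± 0.39 (adjusted p = 0.0718), and −1.95 ± 0.40 (adjusted p = 0.00312) without the 2 libraries.

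The choline and one-carbon genes held 0 called of 45 tested by edgeR, DESeq2 or limma-voom, 0 higher and 2 lower at an unadjusted p under 0.05, 5 bounded and a median of −0.11. Those with the smallest p were Gpcpd1, which releases choline from glycerophosphocholine (−1.23 ± 0.49, adjusted p = 0.320), and Chka, which phosphorylates choline (−0.73 ± 0.33, adjusted p = 0.456). Of 59 genes for methylation and chromatin, 0 were called by edgeR, DESeq2 or limma-voom (4 higher and 0 lower at an unadjusted p under 0.05) and 32 were bounded, 29 positive and 30 negative. Mbd6, a methyl-binding domain protein, had 1.19 ± 0.37 (adjusted p = 0.183). Of 28 genes linked to Alzheimer's disease, 0 were called by edgeR, DESeq2 or limma-voom (1 higher and 1 lower at an unadjusted p under 0.05) and 12 bounded. Apoe, a lipid carrier made mainly by glia, was 1787 to 3447 CPM in control-diet 2N, 996 to 1766 CPM in 6 supplemented libraries and 3226 and 2742 CPM in replicates 2 and 5. Its log2 fold change was −0.65 ± 0.21 (adjusted p = 0.194) with all libraries and −1.04 ± 0.19 (adjusted p = 0.000564) without replicates 2 and 5.

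Markers of other cells were present in these captures. Summed astrocyte markers were 5114 to 6148 CPM in control-diet 2N and 4016 to 5086 CPM in supplemented Ts65Dn, so that the groups did not overlap. This gap is not particular to supplemented Ts65Dn. Supplemented 2N, at 4769 to 4987 CPM, also lay below control-diet 2N, and control-diet Ts65Dn ran from 3618 to 5454 CPM. Of the 18 astrocyte markers, edgeR called 0 and DESeq2 and limma-voom 2 lower each. At an unadjusted p under 0.05, 0 were higher and 3 lower, and edgeR called 1 lower without replicates 2 and 5. Among the 9 at a mean of 6 log2 CPM or more, 8 were bounded inside 2-fold, with a median of −0.18. The 17 oligodendrocyte markers summed to 3369 to 4296 CPM against 3059 to 4376 CPM, with Mbp at 1208 to 1836 CPM against 1275 to 2146 CPM. Vessel markers summed to 505 to 635 CPM against 581 to 925 CPM, and supplemented 2N had 630 to 867 CPM. Of 16, DESeq2 called 1 higher and limma-voom 0. Vwf, an endothelial marker and the member with the smallest p, had 2.21 ± 0.57 (adjusted p = 0.0630). It was called without replicates 2 and 5 (adjusted p = 0.0102). Cldn5, Bsg and Kcnj8 were negative (−0.66, −0.10 and −0.52) and the other members positive. Microglial markers summed to 80.4 to 174 CPM against 97.0 to 211 CPM, and their marker Aif1 was at 0 in 3 of 6 and 5 of 8 libraries. The GABAergic marker Gad1 was 365 to 600.3 CPM against 384 to 634 CPM, and the 12 GABAergic markers summed to 1256 to 1918 CPM against 1488 to 1989 CPM. Median Chat and Slc18a3 were 14.1 and 3.10 CPM in control-diet 2N, where Gad1 and Mbp were 494 and 1730 CPM. Supplemented Ts65Dn had medians of 7.17 and 10.4 CPM, beside 454 and 1598 CPM. Gad1 and Mbp were thus far more abundant than these cholinergic markers in both groups. The glutamatergic list had a median of −1.30 with 0 of 12 called by edgeR, DESeq2 or limma-voom (0 higher and 3 lower at an unadjusted p under 0.05), and Slc17a7 was at 0 in 2 of 6 and 3 of 8 libraries. The part of these cell types in the differences above was not tested.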

How the data were processed

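Total RNA of captured neurons was made into libraries with the SMARTer Stranded Total RNA-Seq Pico kit and read as 50-nt single reads, per the labels' protocols. Trimmomatic 0.39, STAR and RSEM are named in the submitters' processing notes, which also name the builds GRCm39 and mm10 without saying which served which step. The deposited values are RSEM expected counts per gene. TPM from the deposited files of each sample served only for the level of the chromosome 16 segment. Expected counts were rounded to whole numbers, and 52133 of 55414 identifiers matched a GENCODE M21 symbol.

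edgeR 4.0.16 (R 4.3.3) fitted all 24 libraries in 4 groups after filtering at a minimum count of 10, with TMM scaling, a quasi-likelihood test and Benjamini-Hochberg adjustment at 0.05; 19967 genes were tested. Each SE is the absolute log2 fold change divided by the square root of the F statistic, and the intervals rest on it. For genes at or near 0 in a group such symmetric values are approximate. The biological coefficient of variation was 1.40. The procedure was tested on simulated data that gave every gene the same spread, lower than that coefficient. Changes were placed only in abundant genes, so the recovery of changes in genes near 0 counts was not covered. Alternatives included DESeq2 1.42.0 and limma 3.58.1 (voom), and fits with libraries left out. Shared sequence was counted as 31-base stretches of GENCODE M21 transcripts.

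Members and lists were chosen with earlier results of these data known. Named genes are up to 12 per direction with the smallest p among called genes (gene models without a name and pseudogenes passed over), up to 4 called members of a list or else the 2 with the smallest p, 10 genes named whatever their values, up to 8 per direction called in control-diet Ts65Dn, and the 10 with the narrowest intervals. Genes named beyond this rule (Snord15b, Snord21, Snord47, Snord49a, Snord80, Snora7a, Snora81, Gm22357, Gm23650, the host genes, Rpph1, Rny3, Ssbp4, Klhl36, Npcd, Gm37376, the respiratory messenger RNAs other than mt-Atp6, Arc, Npas4, Egr1, Atp5b, Hspa8, Canx, Dnaja1, Gad1, Mbp and Aif1) were chosen after their values were seen. Some genes and sequences that this rule selects are not reported here.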

Additional observations from a re-analysis of the deposited data

Results flagged for a closer look

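Of 68 groups of libraries checked for a value far from the others (Dixon's test at the 95% level, which chance passes in about 1 in 20 groups), 6 values stood out, all in log2 CPM. Among the snoRNAs, Snord17 was lowest in supplemented Ts65Dn 2 (3.60). Snora74a was highest in control-diet 2N 4 (−0.64) and lowest in supplemented Ts65Dn 5 (−2.25). The other control-diet 2N libraries shared the same value, and both Snora74a results lie near the floor of the scale, where counts are few or absent. Cox8a was lowest in control-diet 2N 4 (6.25). Chat was lowest in control-diet 2N 5 (0.018), and Ngfr, the neurotrophin receptor, was lowest in supplemented Ts65Dn 7 (0.93), the library with Chat at 0.565 CPM.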

How the results depend on the processing

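No paired analysis was possible because the replicate numbers were given in accession order and no label pairs mice across groups. With all 8 libraries edgeR called 109 genes (92 higher, 17 lower). DESeq2's Wald test called 341 (268 higher, 73 lower), limma-voom 302 (186 and 116) and edgeR without the filter on low counts 256 (183 and 73). The robust fit called 36 (23 higher), and the mitochondrial ribosomal RNA share as a covariate 28 (17 and 11). The first part of the animal identifier as a factor gave 39 lower. Within prefix 15 (4 supplemented Ts65Dn, replicates 2 and 5 among them, against 2 control-diet 2N) 6 genes were called (5 and 1) and the genes with an interval inside 2-fold numbered 957. Chosen after seeing the data, omitting supplemented Ts65Dn 2 and 5 gave 228 (153 and 75), omitting 2, 5 and 7 gave 204 (66 lower), and omitting the libraries with Chat under 1 CPM gave 10 lower. At an adjusted p under 0.1, 30 were lower; at 0.01, 68 were called and 5 were lower. Leaving out 1 library gave 75 to 154 calls, 64 to 120 higher, 9 to 34 lower and 1879 to 2313 inside 2-fold. The level of the chromosome 16 segment reversed on log2 TPM (−0.27 in place of 0.19). Of the 25 named genes called, 0 changed sign under these settings; of those not called, 17 did under at least 1, Chat among them (0.25, and −1.35 without replicates 2 and 5). Of the 117 named genes only these 25 had a call to lose. Of the 25, 14 lost it with limma-voom, 14 with the robust fit, 17 with the ribosomal RNA covariate and 23 within prefix 15. The cause of these changes was not tested. Genes under a mean of 4 log2 CPM could not be bounded inside 2-fold at this depth.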
